A study of Rattus norvegicus with 20 samples.

Results

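The genes described here are 8 subunits of the potassium channels that carry repolarizing current in heart muscle, namely Kcnd2, Kcnd3, Kcnip2, Kcna5, Kcnq1, Kcnh2, Kcnj2 and Kcnj11. The set had been named for potassium and sodium channels, but all 8 members belong to potassium channels and none is a sodium channel gene. Members were every probe set with one of these symbols as its only gene in the platform annotation, which gave 15 probe sets of 20826 probe sets with a single gene, and 8 of 14217 genes. Kcnd3, Kcnip2 and Kcnj11 had 3 probe sets each, Kcnd2 had 2, and the other genes had 1.

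The study measured the failed and the normal left ventricle of Dahl rats, a rat strain studied for its blood pressure response to dietary salt, with 20 expression arrays of the Rat Genome 230 2.0 type, 10 for each heart. One array of a heart carried its mRNA, one its genomic DNA before immunoprecipitation (pre-IP), and the other 8 carried chromatin immunoprecipitates (ChIP) for histone marks. The marks were acetylation of histone H3 (H3ac) and of H4 (H4ac), di- and trimethylated K4 (K4me2, K4me3), di- and trimethylated K9 (K9me2, K9me3), trimethylated K20 (K20me3) and dimethylated K27 (K27me2), with no histone named for the K marks. Both hearts are given as 19 weeks of age in the labels, except for the normal H4ac sample, which has no age and whose source field reads as pre-IP DNA although its title and description name acetylated H4. The failed heart is labelled congestive heart failure and a high-sodium diet is given for its mRNA sample only; no transgene, deletion or drug is named. The study used a single ventricle specimen for each experiment, so there was 1 array per assay and heart, no replicate error exists for any value, and no test between hearts was possible. The sample titles name no individual animal, so the 10 arrays called a heart here may come from more than 1 animal.

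The heart ends each beat by letting potassium out of its muscle cells, and different channels do so in sequence. Kcnd2 and Kcnd3 encode the Kv4 pores of the fast transient outward current, with Kcnip2 as their cytosolic calcium-binding subunit; Kcna5 encodes the pore of the ultrarapid delayed rectifier; Kcnq1 and Kcnh2 encode the pores of the slow and rapid delayed rectifiers; Kcnj2 encodes an inward rectifier that holds the resting potential; and Kcnj11 encodes the pore of the ATP-sensitive channel, which opens when ATP is low. In rodents the transient outward current is a main repolarizing current of the ventricle, and its decline in failing and hypertrophied heart is textbook knowledge. Acetylated histones and K4 methylation are generally found at active genes, and K9, K20 and K27 methylation more often at silent ones.

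Levels are given with each array scaled to a median of 100 and with a floor of 10, below which values were set to 10. A difference is log2 failed minus log2 normal. A difference was counted when it reached 1 in size, which is 2-fold, in a probe set that passed a level filter: its mean log2 level on the arrays in question had to reach the median probe set's. For mRNA this filter stood at a level of 96.2. The arrays carry probes for transcripts, so a ChIP value describes DNA under those probes and not a promoter. Levels of different probe sets are not set against each other.

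Promoters were available in the RefSeq table for 5 of the 8 genes, in build GRCr8, as 300 bases from 250 before to 50 after the gene's start. Those of Kcnd3 and Kcna5 are shown, because these 2 genes had less mRNA in the failed heart, by 2-fold or more, among the members past the level filter. Capitals mark CpG dinucleotides, and the strand is that of the gene. The Kcnd3 window is chr2:195626066-195626365 on the plus strand and the Kcna5 window is chr4:161043760-161044059 on the minus strand.
Kcnd3: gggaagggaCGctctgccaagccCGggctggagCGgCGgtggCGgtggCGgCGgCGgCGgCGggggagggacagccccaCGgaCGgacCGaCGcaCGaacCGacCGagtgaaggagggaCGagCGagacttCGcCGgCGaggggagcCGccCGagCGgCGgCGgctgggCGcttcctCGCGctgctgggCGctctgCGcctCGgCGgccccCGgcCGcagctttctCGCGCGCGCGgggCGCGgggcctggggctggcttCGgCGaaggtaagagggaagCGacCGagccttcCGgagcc
Kcna5: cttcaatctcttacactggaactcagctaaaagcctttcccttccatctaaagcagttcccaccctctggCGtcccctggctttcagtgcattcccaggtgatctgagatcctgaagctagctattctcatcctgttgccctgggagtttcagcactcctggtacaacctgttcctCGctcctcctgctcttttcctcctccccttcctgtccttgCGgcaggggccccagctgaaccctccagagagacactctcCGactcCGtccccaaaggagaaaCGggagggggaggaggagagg
The Kcnd3 window held 48 CpG dinucleotides and 77.7% G and C, and 99.0% of 33469 promoter windows in the table held fewer CpG. The Kcna5 window held 6 CpG and 56.3% G and C, and 43.7% of windows held fewer. The median window held 7 CpG. Between them lay Kcnd2 with 23 CpG, Kcnj2 with 19 and Kcnip2 with 13. The motif GGGCGG, searched on both strands, had 1 match in the Kcnd3 window, 1 in that of Kcnj2, 2 in that of Kcnip2 and 0 in those of Kcna5 and Kcnd2, against 33.1% of all windows with at least 1 match. TATAAA and AGATAA, searched on both strands, were in none of the 5 windows, against 14.2% and 11.6% of all windows. Kcnd3 and Kcna5 thus had start regions of very different CpG content.

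The first comparison asked which of these channels had more or less mRNA in the failed ventricle. Kcnj11 had more mRNA in the failed heart, Kcnd3 and Kcna5 had less, and Kcnip2 and Kcnq1 differed by less than 2-fold. Of 15 probe sets 7 passed the level filter, and all 7 stood above it in both hearts. Of these, 2 were higher by 2-fold or more, where 11.7% of all probe sets past the filter were, and 3 were lower by as much, where 3.38% were; both ways together the background was 15%. The 2 higher ones belong to 1 gene and 2 of the 3 lower ones to another, so these counts are not independent. The median over the 7 was -0.19.

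Among the transient outward current genes, Kcnd3 probe set 1369144_a_at had an mRNA level of 162 in the failed and 563 in the normal heart, a difference of -1.79. Kcnd3 probe set 1378111_at had 210 in the failed and 610 in the normal heart, a difference of -1.54. The third Kcnd3 probe set, 1369145_a_at, had 77.3 in the failed and 83.0 in the normal heart, a difference of -0.10 below the level filter. Both Kcnd3 probe sets past the filter were thus lower in the failed heart, and the faint one hardly differed.

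The other Kv4 pore, Kcnd2, stayed below the filter at both probe sets. Kcnd2 probe set 1379863_at had 92.8 in the failed and 83.3 in the normal heart. Kcnd2 probe set 1387476_at had 47.6 in the failed and 10.1 in the normal heart, a difference of 2.23 that was 0.00 with the floor at 50. Neither Kcnd2 probe set was therefore counted. For Kcnip2, the subunit that brings Kv4 pores to the membrane, probe set 1373987_at had 1001 in the failed and 1143 in the normal heart, a difference of -0.19. Its faint probe set 1368639_at was at the floor in the failed heart and 59.7 in the normal heart, which is at least 5.97-fold lower. Its other faint probe set, 1370773_a_at, had 11.2 in the failed and 25.4 in the normal heart. With the floor at 50 the differences of 1368639_at and 1370773_a_at were -0.25 and 0.00. The bright and the faint probe sets of Kcnip2 therefore differ in size of the difference with the floor at 10, where all 3 lay below 0.

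Kcna5 mRNA was 106 in the failed and 288 in the normal heart, 2.71-fold lower in the failed heart, at its only probe set. Kcna5 is also expressed in vascular smooth muscle. On the same arrays 6 of 7 smooth muscle markers were lower by 2-fold or more, where 3.14% of all genes past the filter were. The part of smooth muscle in the Kcna5 value was not tested. Kcnq1, the slow delayed rectifier pore, had 283 in the failed and 215 in the normal heart, a difference of 0.40. Kcnh2, the rapid delayed rectifier pore, lay below the filter with 10.6 in the failed and 75.8 in the normal heart; its difference of -2.84 was -0.60 with the floor at 50. Of the 3 delayed rectifier pores, Kcna5 alone passed both the level filter and 2-fold.

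Among the inward rectifiers, Kcnj11 probe set 1391007_s_at had 2529 in the failed and 570 in the normal heart, 4.44-fold higher. Kcnj11 probe set 1387698_at had 1002 in the failed and 444 in the normal heart, a difference of 1.17, which was 0.91 as deposited and 0.88 with quantile normalization. The faint probe set 1369782_a_at went the other way, with 41.1 in the failed and 92.3 in the normal heart, a difference of -1.17. Both bright probe sets were higher in the failed heart, and only 1391007_s_at stayed past 2-fold under every scaling, with 1.74 to 2.15. Kcnj2, the resting inward rectifier, lay below the filter with 58.3 in the failed and 33.0 in the normal heart, a difference of 0.82.

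**Figure D1:**
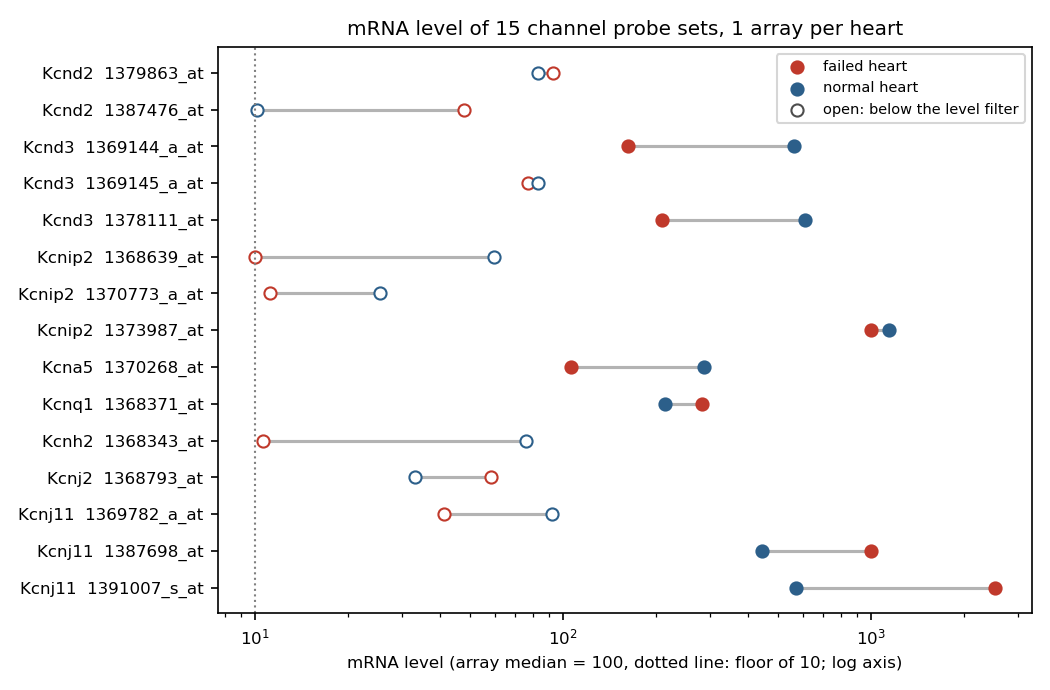
mRNA level (log axis, array median set to 100) of the 15 probe sets on 1 array per heart; red points are the failed heart, blue the normal heart, open points lie below the level filter and the dotted line is the floor of 10. Both filled Kcnd3 pairs and Kcna5 lie lower in the failed heart, both filled Kcnj11 pairs lie higher, and the filled Kcnip2 and Kcnq1 pairs lie close together.

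Several measures moved with the hearts on the same mRNA arrays. The mRNA samples are labelled as left ventricular myocytes; cardiomyocyte markers were high in both hearts, and markers of other cell types were measured above the floor as well. The ratio of 3′ to 5′ control signal for GAPDH was 22.6 in the failed and 11.3 in the normal heart. For beta-actin it was 12.4 in the failed and 18.2 in the normal heart. The 3′ signal thus exceeded the 5′ signal in both hearts, by at least 11.3-fold. Whether this affected the probe sets of 1 gene differently was not tested. The 7 smooth muscle markers had a summed level of 3980 in the failed and 6107 in the normal heart, and Des, which heart muscle also expresses, was higher. Marker counts are of genes past the filter and 2-fold, where 11.8% of all genes were higher and 3.14% lower. Cardiomyocyte markers summed to 178001 in the failed and 139206 in the normal heart, with 3 of 9 higher and 1 lower. Fibroblast markers summed to 42805 in the failed and 20117 in the normal heart with 3 of 7 higher, and macrophage and leukocyte markers to 10809 and 2905 with 3 of 7 past the filter higher. Red blood cell markers summed to 4357 in the failed and 1228 in the normal heart with 1 of 3 higher. Endothelial markers summed to 12199 in the failed and 13414 in the normal heart with 1 of 7 higher, and nerve and glia markers to 765 and 832 with 1 of 5 lower. The nerve marker Snap25 was the only marker at the floor, in the failed heart. In RNA of many cells together, fewer cells of a type and less RNA per cell cannot be told apart. The part of these shifts in the channel differences was not tested.

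The remaining channel genes were taken as lists, at 1 probe set per gene, where 11.8% of all genes past the filter were higher by 2-fold or more and 3.14% lower, with a median of 0.23 over 9317 genes. Of the 44 other potassium channel pore genes measured, 11 passed the filter, 0 of them higher and 2 lower, with a median of -0.13. Kcna2, a Kv1 pore, had 106 in the failed and 360 in the normal heart, a difference of -1.76, and 0.79 at its other probe set. Kcnma1, the large-conductance calcium-activated channel of smooth muscle, had 69.9 in the failed and 143 in the normal heart, a difference of -1.03, with -0.36 and 0.00 at its other probe sets.

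Among 23 potassium channel accessory genes, 8 passed the filter, 2 higher and 0 lower, with a median of 0.22. Kcne1, the small subunit that slows Kcnq1 channels, had 180 in the failed and 54.1 in the normal heart, a difference of 1.74. Kcng2, a silent Kv subunit, had 1185 in the failed and 456 in the normal heart, a difference of 1.38, with 0.51 and 0.66 at its other probe sets. Abcc9, the sulfonylurea receptor that pairs with Kcnj11 in heart muscle, had 3477 in the failed and 4557 in the normal heart, a difference of -0.39, with other probe sets from -0.29 to 1.58; it was picked for this pairing after its values were seen. Kcne1 and its pore Kcnq1 thus differed in size, as did Kcnj11 and its receptor Abcc9.

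Of 12 sodium channel genes measured, 6 passed the filter, 2 higher and 0 lower, with a median of -0.20. Both were genes of small beta subunits. Scn3b had 344 in the failed and 131 in the normal heart, a difference of 1.39, with 3.24 at its other probe set. Scn4b had 433 in the failed and 181 in the normal heart, a difference of 1.26 that was 0.996 as deposited, just under 2-fold. Of 13 pacemaker and calcium channel genes 6 passed the filter, between -0.63 and 0.62, with 0 past 2-fold. Of 16 channel anchoring and regulatory genes all passed the filter and 1 was higher, Fgf13, a sodium channel modulator, with 280 in the failed and 130 in the normal heart, a difference of 1.11 that was 0.85 as deposited, where none of these genes was past 2-fold and higher.

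**Figure D2:**
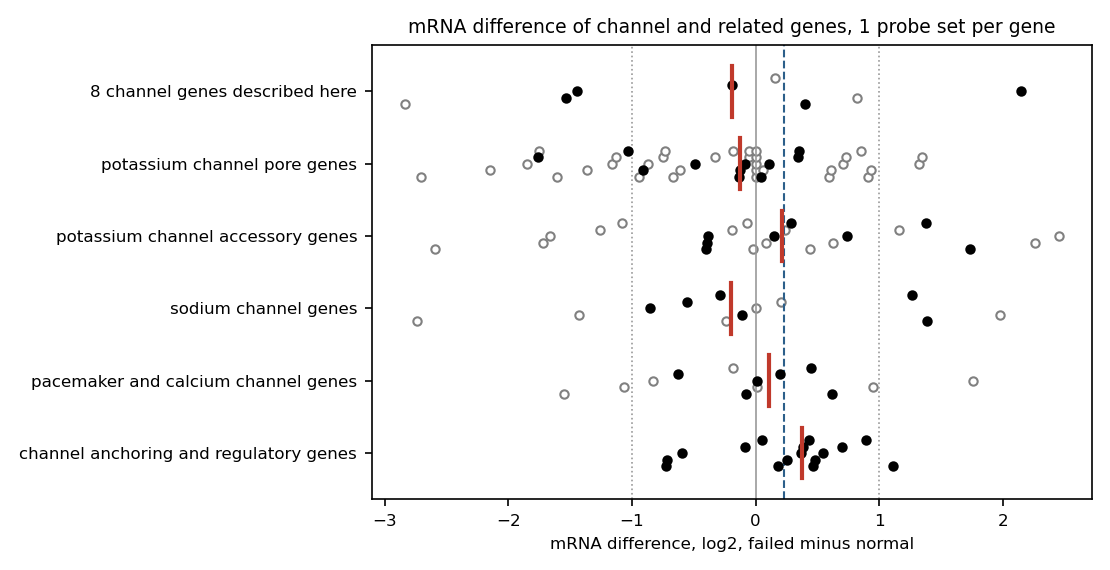
mRNA difference (log2, failed minus normal) of the 8 genes and of 5 lists of related genes, 1 probe set per gene; filled points passed the level filter, open points did not, red bars are list medians over filled points, the dashed blue line is the median of all genes past the filter (0.23) and dotted lines mark 2-fold. Kcnj11 stands at 2.15, and Kcnd3 and Kcna5 at -1.54 and -1.44.

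The comparison of marks within each heart asked which histone marks the channel genes carried. Enrichment is the log2 level on the ChIP array minus that on the pre-IP array of that heart, and a pair is a probe set with a mark. Of 10 pairs at least 2-fold to the same side in both hearts, 8 were Kcnj11. These 10 came from 68 pairs past the level filter in both hearts, 14.7%, against a background of 9.91% over all probe sets. They were 6 enriched pairs, with a background of 5.67%, and 4 depleted pairs, with a background of 4.25%. Probe sets of 1 gene share their locus, so the pairs are not independent. The number of enriched pairs was 2 as deposited and 2 with quantile normalization.

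Kcnj11 was enriched in K4me2 at all 3 probe sets. Probe set 1391007_s_at had a K4me2 enrichment of 1.48 in the failed and 2.80 in the normal heart. Probe set 1387698_at had 1.51 in the failed and 2.21 in the normal heart, and probe set 1369782_a_at had 2.25 in the failed and 1.87 in the normal heart. All 3 probe sets thus stood above 1 in both hearts, for a gene whose coding region lies in a single exon. With quantile normalization the K4me2 enrichments of Kcnj11 were smaller, 0.29 to 0.90 in the failed and 0.81 to 1.84 in the normal heart, and as deposited they were 0.80 to 1.57 in the failed and 1.42 to 2.35 in the normal heart. For H3ac the 3 probe sets had between 0.79 and 1.26 in the failed heart and between 1.40 and 2.49 in the normal heart. The H3ac enrichments were 0.40 to 0.87 in the failed and 1.06 to 2.14 in the normal heart as deposited, and 0.11 to 0.56 in the failed and 0.61 to 1.75 in the normal heart with quantile normalization, so no H3ac pair was past 2-fold in both hearts under either. For H4ac the range was 0.15 to 0.45 in the failed and 1.14 to 1.60 in the normal heart, and for both marks each of the 3 probe sets had its lower value in the failed heart.

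K9me2, K20me3 and K27me2 were low at Kcnj11. K27me2 enrichment ran from -2.37 to -1.17 in the failed heart and from -1.78 to -0.35 in the normal heart. K20me3 ran from -1.46 to -0.97 in the failed and from -2.55 to -0.77 in the normal heart, and K9me2 from -1.80 to -0.33 in the failed and from -1.51 to -0.84 in the normal heart. All 9 values of these marks in each heart lay below 0. Over the 18 arrays of DNA the levels of the 3 Kcnj11 probe sets correlated pairwise with Pearson's r from 0.91 to 0.94, a description over points that share hearts and assays. The 3 Kcnd3 probe sets gave pairwise r of 0.21, -0.01 and 0.32 over the same arrays, and the 3 Kcnip2 probe sets -0.59, -0.15 and 0.49. Probe sets of Kcnd3 and of Kcnip2 thus did not follow each other as those of Kcnj11 did.

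Kcnip2 and Kcnh2 gave the other enriched pairs. Kcnip2 probe set 1373987_at had an H4ac enrichment of 1.03 in the failed and 1.09 in the normal heart. Kcnh2 had a K4me2 enrichment of 1.54 in the failed and 1.11 in the normal heart. Both values were close between hearts for Kcnip2, and for Kcnh2 the pre-IP level itself was lower in the failed heart, 70.1 against 137 in the normal heart.

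The other genes had no pair past 2-fold to the same side in both hearts and past the filter. Kcnd2 probe set 1379863_at, whose DNA levels were low, had an H3ac enrichment of -2.15 in the failed and -1.87 in the normal heart and an H4ac enrichment of -1.81 in the failed and -2.12 in the normal heart. The second Kcnd2 probe set had an H4ac enrichment of -0.97 in the failed and -1.27 in the normal heart and a K9me2 enrichment of 1.33 in the failed and 0.83 in the normal heart. Kcnd2 was thus low in acetylated H4 at both probe sets in both hearts, and its probe sets correlated with r of 0.80 over the 18 DNA arrays. Kcnd3 probe set 1369144_a_at stayed between 0.13 and 0.93 in the failed heart and between -0.20 and 0.39 in the normal heart over all 8 marks. Kcnd3 probe set 1369145_a_at had a K9me2 enrichment of 1.47 in the failed and 0.18 in the normal heart and a K4me3 enrichment of 0.81 in the failed and -0.82 in the normal heart. Probe set 1378111_at, below the filter, ran from -1.50 to 0.28 in the failed and from -2.46 to -0.58 in the normal heart. The 3 Kcnd3 probe sets thus differed in their marks.

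Kcna5, lower in mRNA in the failed heart, had a K4me2 enrichment of 1.38 in the failed and 0.96 in the normal heart. Its H3ac enrichment was 0.40 in the failed and 1.30 in the normal heart, and its H4ac enrichment 0.34 in the failed and 0.95 in the normal heart. Its K9, K20 and K27 methylation values stayed between -0.66 and 0.30 in the failed heart and between -0.49 and 0.22 in the normal heart. Kcnj2 had a K4me2 enrichment of 0.97 in the failed and 0.21 in the normal heart and a K9me3 enrichment of 0.93 in the failed and 0.77 in the normal heart. Kcnq1 was above 0 for all 8 marks, from 0.62 to 1.42 in the failed and from 0.24 to 1.64 in the normal heart, where its pre-IP level was low, at 42.1 in the failed and 28.8 in the normal heart. All 8 marks of a heart share that pre-IP value.

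**Figure D3:**
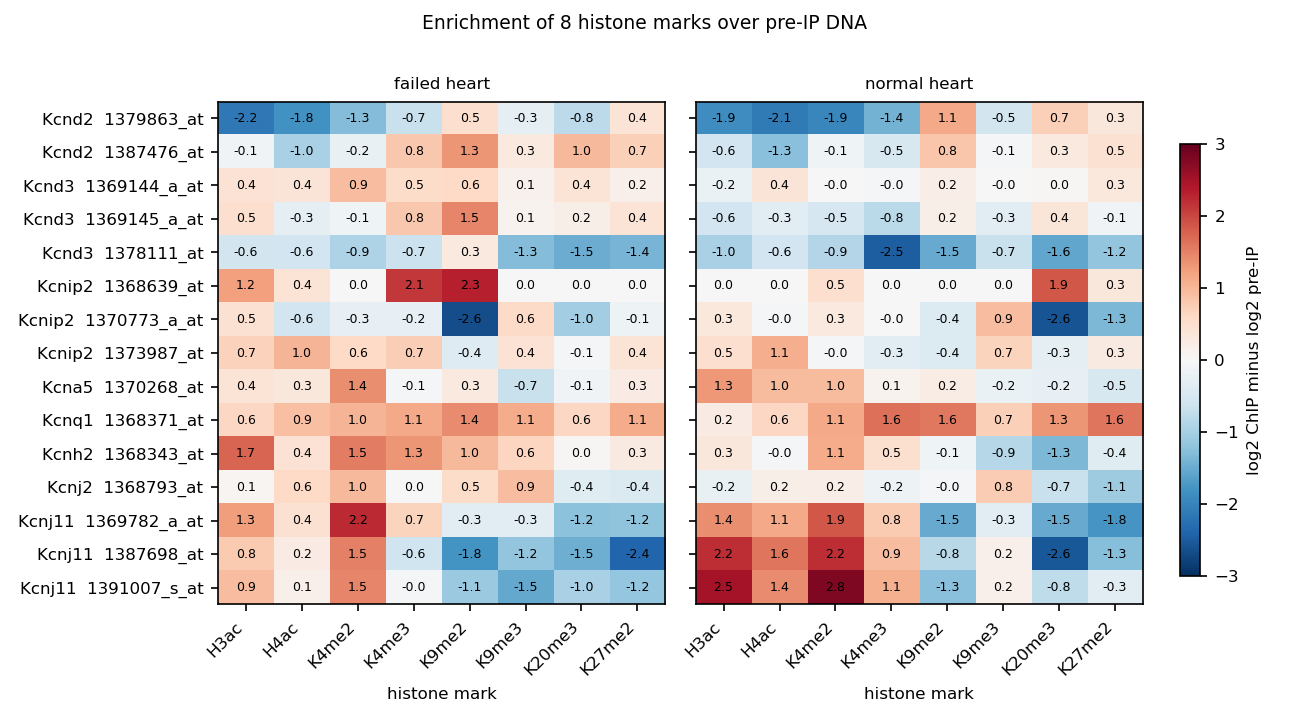
Enrichment (log2 ChIP minus log2 pre-IP, colour and printed value) of 8 histone marks at the 15 probe sets, in the failed heart on the left and the normal heart on the right. The 3 Kcnj11 rows are above 0 for H3ac, H4ac and K4me2 and below 0 for K9me2, K20me3 and K27me2 in both hearts.

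The comparison of marks between hearts asked where a mark over pre-IP differed in the failed heart. At its 2 bright probe sets, which had more mRNA in the failed heart, Kcnj11 had less H3ac, H4ac, K4me3 and K9me3 over pre-IP there. All 10 lower differences past 2-fold belonged to Kcnj11. Of 75 pairs past the level filter, 9 were higher by 2-fold or more, with a background of 9.63%, and 10 were lower, with a background of 8.45%. Together these are 25.3% of the pairs, against 18.1% over all probe sets and marks. Of these 19 differences 3 also passed 2-fold when the ChIP arrays were compared without pre-IP, where 5 pairs in all did, against a background of 8.85%.

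For Kcnj11 probe set 1391007_s_at the H3ac enrichment was 0.93 in the failed and 2.49 in the normal heart, a difference of -1.56. Its K9me3 difference was -1.69, its K4me2 difference -1.32, its H4ac difference -1.28 and its K4me3 difference -1.12. For probe set 1387698_at the differences were -1.42 for H3ac, -1.35 for H4ac, -1.52 for K4me3, -1.35 for K9me3 and -1.09 for K27me2. Both probe sets were past 2-fold for the same 4 marks, H3ac, H4ac, K4me3 and K9me3.

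The pre-IP level at these Kcnj11 probe sets moved the other way. At 1391007_s_at it was 303 in the failed and 155 in the normal heart, a pre-IP difference of 0.96, and at 1387698_at it was 306 in the failed and 204 in the normal heart, a difference of 0.59. On the ChIP arrays alone the H3ac level at 1391007_s_at was 577 in the failed and 874 in the normal heart, a difference of -0.60. At 1387698_at the H3ac level was 530 in the failed and 943 in the normal heart, a difference of -0.83. Without pre-IP the H4ac, K4me3 and K9me3 differences lay between -0.94 and -0.16 at both probe sets, so the direction held for these 4 marks and none reached 2-fold. Probe set 1369782_a_at, faint in mRNA but not on the DNA arrays, with pre-IP of 244 in the failed and 336 in the normal heart, had an H3ac difference of -0.14 and an H4ac difference of -0.69, and its H4ac level was 332 in the failed and 740 in the normal heart, -1.15 without pre-IP. Its K4me2 difference was 0.38, its K4me3 difference -0.13 and its K9me3 difference -0.01, so the 2-fold differences of the other two probe sets were not seen there.

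The K20me3 and K9me2 differences at Kcnj11 did not share a direction over its probe sets. The K20me3 level at 1387698_at was 111 in the failed and 34.7 in the normal heart, a difference of 1.09 over pre-IP and of 1.68 without it. At 1391007_s_at the K20me3 level was 155 in the failed and 91.4 in the normal heart, a difference of -0.20 over pre-IP and of 0.76 without it. At 1369782_a_at it was 104 in the failed and 118 in the normal heart, a difference of 0.29 over pre-IP and of -0.17 without it. No sign of K20me3 was thus shared by the 3 probe sets on either scale. The K9me2 level at 1391007_s_at was 141 in the failed and 65.3 in the normal heart, a difference of 0.15 over pre-IP and of 1.11 without it. The third probe set, 1369782_a_at, had a K9me2 level of 194 in the failed and 118 in the normal heart, a difference of 1.18 over pre-IP and of 0.72 without it. At 1387698_at the K9me2 level was 88.0 in the failed and 114 in the normal heart, a difference of -0.95 over pre-IP and of -0.37 without it. K9me2 was thus lower in the failed heart at 1387698_at and higher at the other two.

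The other 7 higher differences past 2-fold lay at Kcnd2, Kcnd3, Kcnip2 and Kcnh2. At Kcnd3 probe set 1369145_a_at the K4me3 level was 729 in the failed and 344 in the normal heart, a difference of 1.63 over pre-IP and of 1.08 without it. The same probe set had a K9me2 difference of 1.29 and an H3ac difference of 1.09, which were 0.75 and 0.54 without pre-IP. Kcnd3 probe set 1378111_at, below the filter, had K4me3 and K9me2 differences of 1.81 and 1.78. The third Kcnd3 probe set, 1369144_a_at, had 0.58 for K4me3 and 0.40 for K9me2. Without pre-IP these were 0.01 and -0.16, so 1369144_a_at did not share the higher values of the other two.

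Kcnip2 probe set 1373987_at had a K4me3 level of 157 in the failed and 78.3 in the normal heart, a difference of 1.04 that was 1.01 without pre-IP. Kcnd2 probe set 1387476_at had a K4me3 level of 256 in the failed and 181 in the normal heart, a difference of 1.28 that was 0.50 without pre-IP. Kcnh2 had differences of 1.42 for H3ac and 1.10 for K9me2, and of 0.45 and 0.14 without pre-IP. All 8 Kcnh2 differences were above 0, from 0.43 to 1.49, beside its pre-IP difference of -0.96. Kcna5 and Kcnq1 had no difference past 2-fold, with ranges over the 8 marks of -0.90 to 0.74 and of -0.70 to 0.39. Kcnj2 lay above 0 for all 8 marks, from 0.15 to 0.76, with a pre-IP difference of -0.56.

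**Figure D4:**
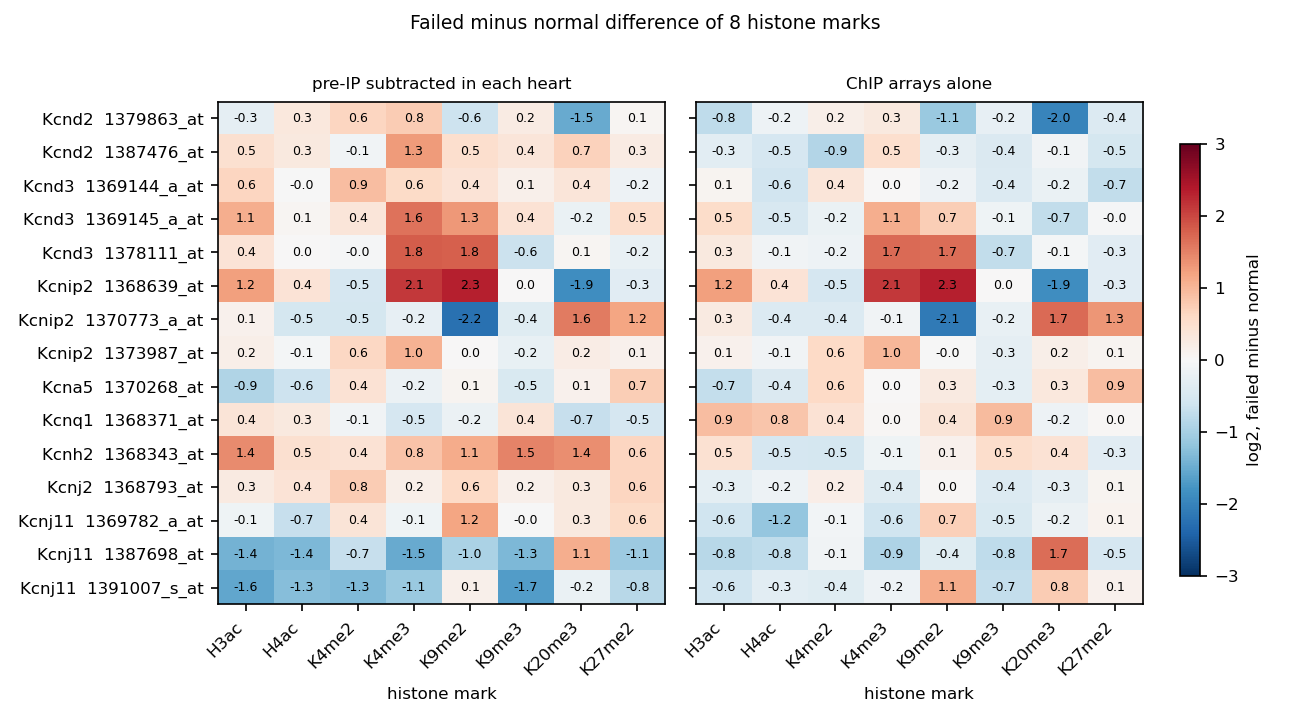
Difference of each mark (log2, failed minus normal, colour and printed value) at the 15 probe sets, with pre-IP subtracted in each heart on the left and from the ChIP arrays alone on the right. The blue Kcnj11 rows and the red Kcnh2 row on the left are paler on the right, while K4me3 at Kcnd3 probe sets 1369145_a_at and 1378111_at stays above 1.

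The pre-IP arrays gave 0 of 8 member probe sets past the filter beyond 2-fold, against a background of 7.66%, with differences from -0.79 to 0.96. Set beside the mRNA, the genes did not share a pattern over pre-IP. Kcnj11 had more mRNA with less H3ac at its bright probe sets, and Kcna5 had less mRNA with an H3ac difference of -0.90. The Kcnd3 probe sets with less mRNA, 1369144_a_at and 1378111_at, had H3ac differences of 0.64 and 0.41, the latter below the filter. Without pre-IP these Kcnd3 differences were 0.08 and 0.29. The H3ac differences without pre-IP were -0.60 and -0.83 at Kcnj11 probe sets 1391007_s_at and 1387698_at, and -0.72 at Kcna5. None of these H3ac differences without pre-IP reached 2-fold.

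The genes whose levels followed a member most closely over all 20 arrays were found for each member's probe set with the highest mRNA level, among 10850 probe sets at or above the median level. For Kcnj11 these were Rpl37a with Pearson's r of 0.95 and Micos13 with 0.95, and for Kcnip2 Vim with 0.96 and Spop with 0.96. For Kcnd3 they were Atg16l1 with 0.92 and Cyth2 with 0.89, and for Kcna5 Fndc5 with 0.85 and Tab1 with 0.83. For Kcnj2 they were Hapstr1 with 0.95 and Agtpbp1 with 0.94, for Kcnq1 Rnls with 0.91 and Papss1 with 0.90, and for Kcnh2 Parp6 with 0.91 and Dclk2 with 0.90. For Kcnd2 they were Uba6 with 0.90 and LOC102549828 with 0.86. These are the highest of many values over arrays of different assays that share probes and hearts, and are given as a description. A gap between mRNA and DNA arrays enters r. Kcnip2 probe set 1373987_at had mRNA levels of 1001 in the failed and 1143 in the normal heart. Its DNA array levels ran from 72.1 to 207. The part of this gap in r was not tested.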

How the data were processed

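The deposited values were probe set intensity on a linear scale, 1 value for each of 31099 probe sets on each of 20 arrays, as deposited by the authors in the series matrix; no column was left unused. Which program made and scaled them is unknown from the sources read. The trimmed mean of the arrays, leaving out 2% of values at the top and the bottom, was 500.03 to 500.17, a sign of scaling to a common target. Medians ran from 189 to 415. Per the labels' protocols, total RNA was amplified into biotinylated cDNA.

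After removal of 57 control probe sets, each array was scaled to a median of 100, values under 10 were set to 10, which touched 2.04% to 11% of values, and log2 was taken with pandas 2.3.3. Of the probe sets, 20826 had 1 gene, 436 several and 9780 none listed; 20758 matched a current gene ID and 0 were renamed. A gene in a list was represented by the probe set brightest in mRNA. Groups came from titles and descriptions. With 1 array per group, the number of arrays limits the precision and differences were counted past 2-fold with no test. Counting was tested on simulated data. The members and lists were chosen with earlier results of these data known. Named were all members, and in each list up to 3 genes each way past 2-fold. Abcc9, Des and Snap25 were named after their values were seen. Alternatives were the deposited scale, quantile normalization, floors of 50 and 1, no level filter, averaged probe sets and other treatments of pre-IP.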

Additional observations from a re-analysis of the deposited data

How the results depend on the processing

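No paired analysis was possible because each group has 1 array. The log2 ratio of the deposited mRNA array medians was -0.27, which the rescaling sets to 0.

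Of the members past the level filter, 2 mRNA probe sets were at least 2-fold higher and 3 lower. The higher count was 1 as deposited and 1 with quantile normalization, and 0 of the genes when probe sets were averaged; without the level filter 7 were lower. The 19 mark differences, 9 higher and 10 lower, became 4 and 1 with the mean of both pre-IP arrays and 4 and 1 with no pre-IP correction, which are equal by construction, and the higher count was 18 with no level filter. The 6 pairs enriched in both hearts became 2 as deposited and 2 with quantile normalization. Pre-IP differences past 2-fold were 1 with quantile normalization. Of the single values of at least 2-fold in size, 1 changed sign, in a pair below the filter that was not counted. The K20me3 difference of Kcnip2 probe set 1370773_a_at was -0.10 with the floor at 50. Smaller single values changed sign more often, 22 as deposited, 18 with quantile normalization and 65 with the mean of both pre-IP arrays. Among them, the mRNA difference of Kcnd2 probe set 1379863_at was 0.16 in the main setting and -0.11 as deposited.

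As deposited, 1 sodium channel gene was higher and 1 lower, and 0 anchoring genes were higher. With quantile normalization 1 accessory gene was higher and 1 lower, 1 sodium channel gene was lower and 2 anchoring genes were lower. With no level filter there were 2 higher and 10 lower pore genes, 5 higher and 5 lower accessory genes, 2 lower sodium channel genes, and 1 higher and 2 lower pacemaker and calcium channel genes. With averaged probe sets there were 0 lower pore genes, 1 higher accessory gene, 1 higher sodium channel gene, 1 lower pacemaker or calcium channel gene and 2 lower anchoring genes. The cause was not tested.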
